A study of Mus musculus with 6 samples.

Results

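The Hox genes are homeobox transcription factor genes that lie in 4 clusters, Hoxa, Hoxb, Hoxc and Hoxd, and are numbered along each cluster as paralog groups 1 to 13. They were taken by symbol, as every gene named Hoxa, Hoxb, Hoxc or Hoxd plus a number, which gave 39 genes. Of these, 38 were listed in at least 1 library among the 18437 mRNAs listed in all, and 35 had reads on the coding sequence (CDS) in at least 1 library. The data were Ribo-seq libraries, made from mRNA fragments that ribosomes protect from nuclease, from pieces of 6 tissues, namely the heart, lung, kidney, colon, small intestine and brain. All of the mice were WT C57BL/6J without treatment and 4 weeks of age, and there was 1 library for each labelled tissue, made from a lysate of the tissue. With 1 library per label there was no error between replicates to test against, so each value stands for 1 library. In a piece of tissue, fewer cells of a type and fewer ribosomes on an mRNA per cell cannot be told apart.

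Hox proteins bind DNA through the homeodomain and give cells of the embryo their position along the body axis. Genes at the 3′ end of a cluster (low numbers) are used in anterior parts such as the hindbrain, and genes at the 5′ end (high numbers) in posterior parts such as the lumbar and sacral region, the hindgut and the urogenital tract. Forebrain and heart muscle arise largely outside this code, and many cell types of adult organs keep the Hox genes of the level they came from.

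The level was given as RPKM, the reads on a CDS scaled by its length in kilobases and by the reads on all CDSs, and the reads behind it were recovered from the deposited values. The libraries held 4504853 to 10635031 reads. The markers went against 4 of the 6 labels, so a library is named here only by its label. All 3 markers of kidney were highest in the colon-labelled library, all 3 of colon in the kidney-labelled library, all 3 of brain in the small intestine-labelled library and all 3 of small intestine in the brain-labelled library. Heart and lung markers were highest under their own labels. For example, Umod, which the thick ascending limb of the kidney secretes, was at 16438 RPKM in the colon-labelled library, and Snap25 of nerve terminals was at 683 RPKM in the small intestine-labelled library. RPKM values carry 95% exact Poisson intervals and shares of reads 95% Wilson intervals, in square brackets. They cover counting error only, since reads carried no molecular identifiers. A gene with no reads, whether it was listed at 0 or not listed, has a bound of 3 reads per library.

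The clusters lie on chromosomes 6 (Hoxa, minus strand), 11 (Hoxb), 15 (Hoxc) and 2 (Hoxd), the last 3 on the plus strand, in GRCm39. Hox genes arose by duplication and share much of the homeobox. Over the 180 bases of the homeobox, genes of the same paralog group were identical at a median of 80.6% of bases (67.2 to 93.9%, 42 pairs), against 61.7% between other genes of the same cluster and 60.6% between the remaining pairs. The 30 bases that encode part of the recognition helix, which sits in the major groove of DNA, are shown for genes of groups 4, 10 and 13, each of which had most of its reads in 1 library. They are written 5′ to 3′ on the coding strand from GENCODE transcripts, with capitals for bases that differ from the Hoxa member of the same group. Group 4 had 135 reads in the lung-labelled library and at most 44 in any other.
Hoxa4: atctggtttcagaaccggagaatgaagtgg
Hoxb4: atctggttCcagaaTcggCgCatgaagtgg
Hoxa4 lies at chr6:52167475-52167504 and Hoxb4 at chr11:96211020-96211049. The run of Hoxb4 was also found, letter for letter, in Hoxa6 and Hoxa7.

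Group 10 had 193 reads in the colon-labelled library and 21 in the kidney-labelled library, and group 13 had 15 and 219.
Hoxa10: atctggtttcagaatcgcaggatgaaactg
Hoxc10: atctggtttcaAaatcgcagAatgaaactC
Hoxd10: atTtggtttcaAaaCcgcCgAatgaaactC
Hoxa13: atctggttccagaacaggagggtcaaagag
Hoxb13: atctggttTcagaacCgCCgggtcaaGgag
Hoxd13: atTtggttTcagaaTCgAagggtGaaGgaC
The group 10 runs lie at chr6:52209546-52209575, chr15:102879421-102879450 and chr2:74524623-74524652. Those of group 13 lie at chr6:52235920-52235949, chr11:96086984-96087013 and chr2:74500412-74500441. Within group 13 the run of Hoxb13 differed from that of Hoxa13 at 5 bases and that of Hoxd13 at 8.

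Reads that matched more than 1 mRNA had been left out, so shared sequence could lower the count of a Hox gene. Between 95.2% and 100% of the 29 nt windows of each Hox CDS occurred in no other of 21594 mRNAs, with a median of 99.6%, and 16 of the 39 CDSs had no shared window. Within the homeobox the shared windows made up 23.7% of all windows in Hoxd3, 21.7% in Hoxb3 and 21.1% in Hoxa6. Hoxd3, of whose windows 97.2% were its own, was the 1 Hox gene not listed in any library. The gene body of Hoxc5 overlaps those of Hoxc6, Hoxc8, Hoxc9 and Hoxc10 in the annotation. The gene bodies of Hoxd3 and Hoxd4 and of Hoxa3 and its neighbours also overlap. However, reads were assigned to the CDS of 1 mRNA per gene.

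The Hox genes with reads differed between libraries in number and in position along the clusters. At least 1 read was found for 23 Hox genes in the kidney-labelled library, 21 in the colon-labelled library, 16 in the small intestine-labelled library, 14 in the brain-labelled library, 13 in the heart-labelled library and 10 in the lung-labelled library, of 39 in each. Of all listed mRNAs, 76.5% had a read in the kidney-labelled library, 66.8% in the colon-labelled library, 81.5% in the small intestine-labelled library, 62.5% in the brain-labelled library, 79.6% in the heart-labelled library and 62.9% in the lung-labelled library. At least 10 reads were found for 17 Hox genes in the colon-labelled library (55.9% of all mRNAs), 14 in the kidney-labelled library (64.1%), 10 in the brain-labelled library (52.5%), 5 in the lung-labelled library (55.4%), 3 in the small intestine-labelled library (67.0%) and 0 in the heart-labelled library (61.8%). In every library the share of Hox genes at either minimum was below that of all mRNAs. The order of libraries by Hox genes did not follow the order by all mRNAs, since the libraries labelled heart and small intestine listed the most mRNAs and held few Hox reads.

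Summed over the Hox genes, the level ranged from 3.72 RPKM [2.43 to 5.44] in the heart-labelled library, from 26 reads, to 468 RPKM [445 to 492] in the colon-labelled library, from 1605 reads. It was 13.8 RPKM [11.04 to 17.1] in the small intestine-labelled library (84 reads) and 42.4 RPKM [37.4 to 47.9] in the lung-labelled library (261 reads). In the libraries labelled brain and kidney it was 165 RPKM [156 to 174] (1315 reads) and 178 RPKM [167 to 189] (1065 reads), and these intervals overlapped. The order from heart to small intestine, lung, brain and kidney, and colon was beyond counting error at each step except the one from brain to kidney. Kri1, a gene of ribosome biogenesis, took 22.1% of all reads in the kidney-labelled library and 14.1% in the small intestine-labelled library, against 0.400 to 6.79% in the others, which lowers the RPKM of the other mRNAs in these libraries. With Kri1 left out of the totals, the summed Hox level was 168 RPKM under the label brain and 228 RPKM under the label kidney.

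**Figure D1:**
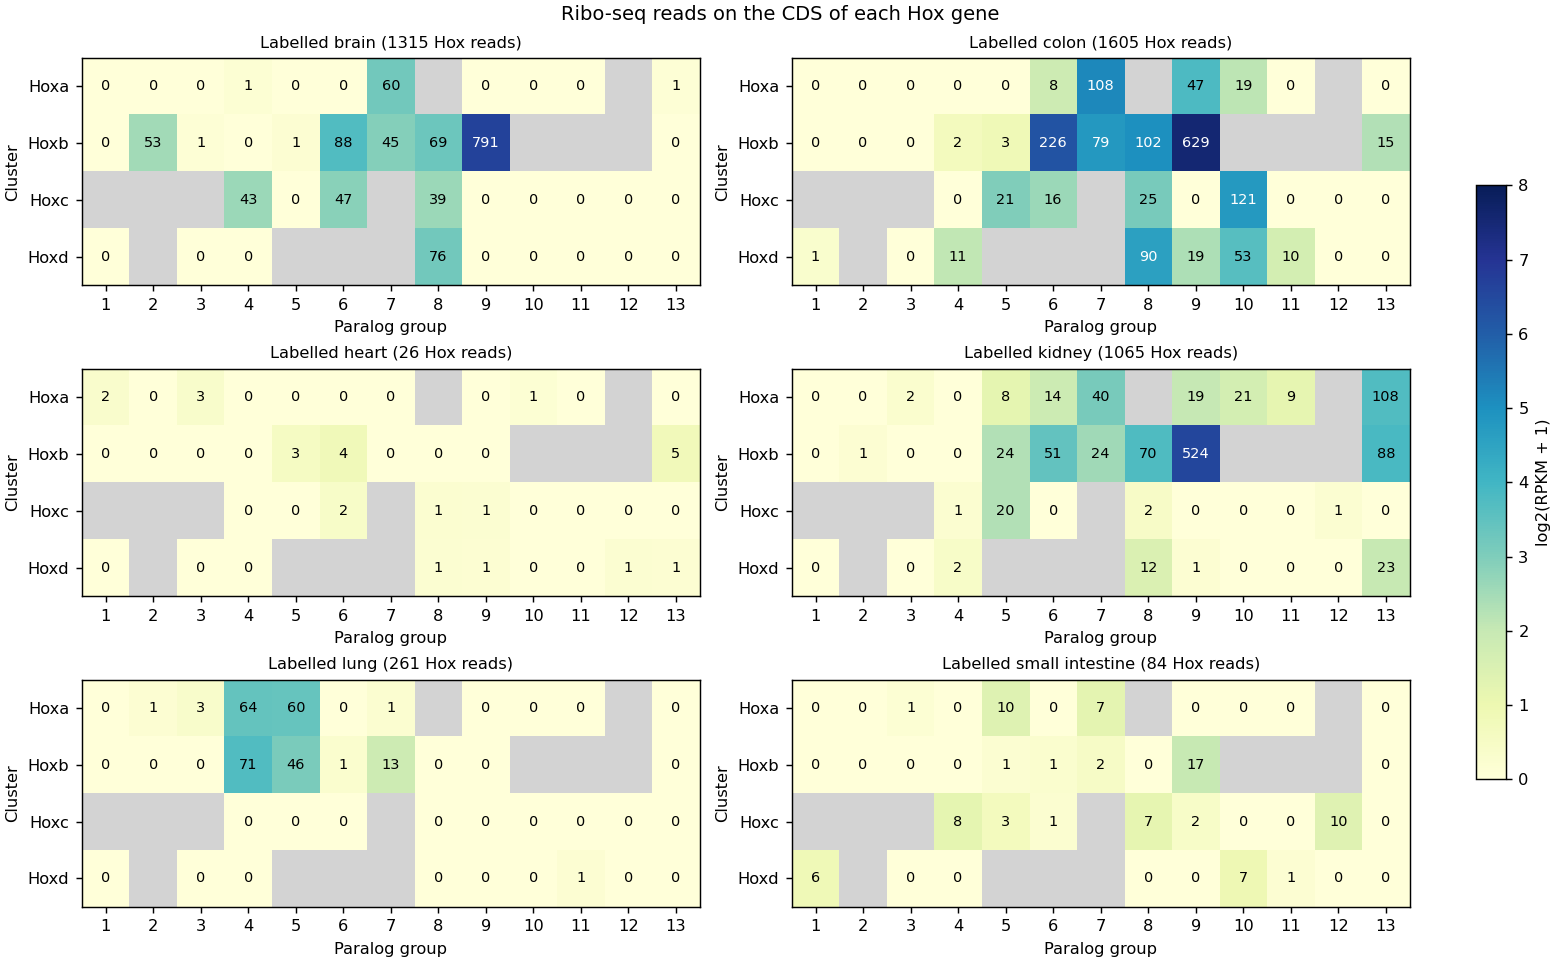
Reads on the CDS of each Hox gene in each library, with clusters as rows and paralog groups as columns. The number in a cell is the reads, the colour is log2(RPKM + 1), gray cells have no gene, and 0 stands for a gene with no reads or not listed. Most reads fall in groups 4 and 5 in the lung-labelled library and reach group 9 in the brain-labelled library, with 1 read beyond it, and extend to group 13 in those labelled colon and kidney.

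Of the 39 genes, 27 had at least 10 reads in any library, 8 had between 1 and 9 at most, and 4 had none, namely Hoxb1, Hoxc11, Hoxc13 and the unlisted Hoxd3. At least 10 reads were found in 1 library only for 13 genes (11.0% of all mRNAs), in 2 libraries for 8 (7.96%), in 3 for 4 (7.78%) and in 4 for 2, Hoxb7 and Hoxb9 (8.47%). No Hox gene reached 10 reads in 5 or 6 libraries, as 47.2% of all mRNAs did. With at least 10 reads over the 6 libraries as the minimum, 27 Hox genes and 15432 mRNAs could be ranked by RPKM. The library labelled colon was highest for 15 of the 27 Hox genes (15.2% of all mRNAs), the kidney-labelled library for 4 (9.10%), the lung-labelled library for 4 (24.5%), the brain-labelled library for 3 (14.9%), the small intestine-labelled library for 1 (23.5%) and the heart-labelled library for 0 (12.8%). For 20 of the 27 the highest library was separate from every other beyond counting error, against 66.7% of all mRNAs, and the exceptions were Hoxc5, Hoxb5, Hoxa6, Hoxc6, Hoxc8, Hoxa10 and Hoxc12. The median share of a gene's summed RPKM found in its highest library was 76.7% for the Hox genes and 46.1% for all mRNAs. The median of the highest RPKM was 9.58 for the Hox genes and 21.2 for all mRNAs.

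Among the 4 libraries with over 100 Hox reads, the mean paralog number was lowest in the lung-labelled library and highest in the kidney-labelled library. Groups 4 to 8 held 98.1% of Hox reads [95.6 to 99.2] in the lung-labelled library, and groups 9 to 13 held 0.383% [0.0677 to 2.14], which was 1 read of Hoxd11. In the kidney-labelled library groups 9 to 13 held 74.6% [71.9 to 77.1], in the brain-labelled library 60.2% [57.6 to 62.8] and in the colon-labelled library 56.9% [54.4 to 59.3]. Beyond group 9 these 3 libraries parted. Groups 10 to 13 held 23.5% [21.0 to 26.1] of Hox reads in the kidney-labelled library and 13.6% [12.0 to 15.3] in the colon-labelled library, but 0.0760% [0.0134 to 0.429] in the brain-labelled library, 1 read of 1315. The lowest and highest groups with at least 10 reads were 2 and 9 under the label brain, 4 and 7 under lung, 4 and 13 under colon and 5 and 13 under kidney. These ranges had gaps. The groups that reached 10 reads were 6 in number under the label brain, 3 under lung, 9 under colon and 7 under kidney. The mean paralog number, weighted by reads, was 4.58 in the lung-labelled library, 7.94 in the brain-labelled library, 8.23 in the colon-labelled library and 9.25 in the kidney-labelled library. The heart- and small intestine-labelled libraries, with 26 and 84 Hox reads, had means of 7.54 and 7.31, shares in groups 1 to 3 of 19.2% [8.51 to 37.9] and 8.33% [4.10 to 16.2], and shares in groups 10 to 13 of 30.8% [16.5 to 49.99] and 21.4% [14.01 to 31.3]. With each gene counted once, the mean was 7.92 in the heart-labelled library and 7.70 in the kidney-labelled library. Most of the share in groups 9 to 13 in the brain-, colon- and kidney-labelled libraries was Hoxb9. Without Hoxb9 that share was 0.191% in the brain-labelled library, 29.1% in the colon-labelled library and 49.9% in the kidney-labelled library.

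**Figure D2:**
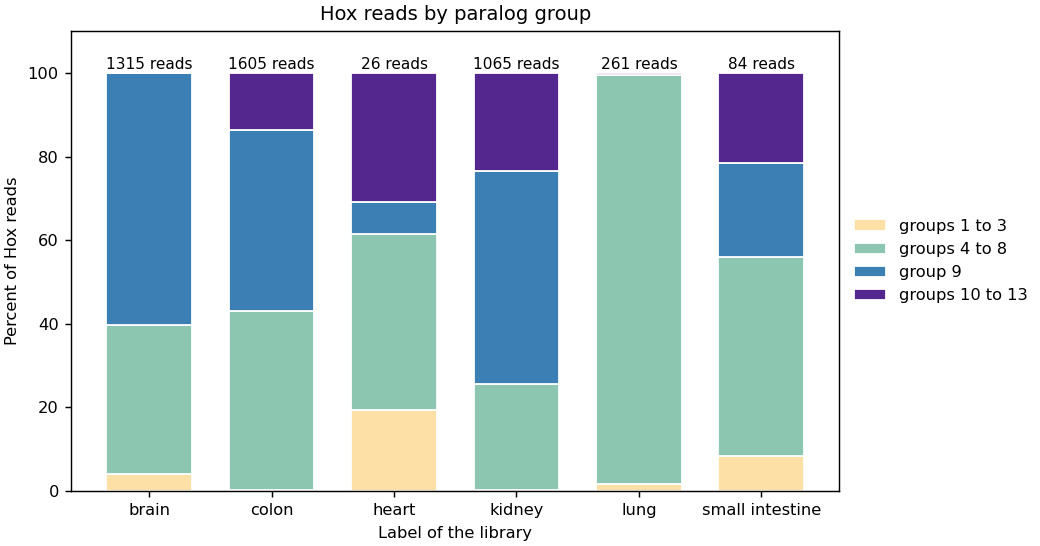
Percent of the Hox reads of each library in paralog groups 1 to 3, 4 to 8, 9, and 10 to 13, with the number of Hox reads above each bar. The library labelled lung lies almost wholly in groups 4 to 8. Groups 10 to 13 appear in those labelled colon, kidney, heart and small intestine but hold 1 read in each of those labelled brain and lung. The bars for the labels heart and small intestine rest on 26 and 84 reads.

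The anterior groups 1 to 3, which pattern the hindbrain and the cranial neural crest, were nearly without reads. Hoxb2, which acts in hindbrain segments, was the exception, with 53 reads in the brain-labelled library (4.69 RPKM [3.52 to 6.14]), 1 in the kidney-labelled library and none in the others. Against 3 reads, Hoxb2 was 7.48-fold higher in the brain-labelled library than in the colon-labelled library (lower limit of the interval 5.88). It was 37.8-fold [6.50 to 1521] higher in the brain-labelled library than in the kidney-labelled library. The other genes of these groups had at most 6 reads in any library. Those 6 reads were of Hoxd1 in the small intestine-labelled library. Hoxb1, which marks a segment of the hindbrain, was listed at 0 in all 6 libraries.

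Groups 4 and 5, which act in the neck, the upper chest and the lung bud, set the lung-labelled library apart. Hoxa4 had 64 reads there (9.68 RPKM [7.46 to 12.4]), 1 in the brain-labelled library and none in the other 4. Hoxb4 had 71 reads there (12.2 RPKM [9.56 to 15.4]), 2 in the colon-labelled library and none elsewhere. Their paralogs did not share this pattern. Hoxc4 had 43 reads in the brain-labelled library (5.11 RPKM), 8 in the small intestine-labelled library, 1 in the kidney-labelled library and none elsewhere, and Hoxd4 had 11 reads in the colon-labelled library and 2 in the kidney-labelled library. Thus Hoxa4 and Hoxb4 were highest under the label lung, Hoxc4 under brain and Hoxd4 under colon.

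Hoxa5, which the mesenchyme of the airways needs for normal branching, had 60 reads in the lung-labelled library (9.58 RPKM [7.31 to 12.3]), 10 in the small intestine-labelled library (1.61 RPKM), 8 in the kidney-labelled library (1.30 RPKM) and none in the other 3. It was 7.36-fold [3.50 to 17.8] higher under the label lung than under the label kidney. Hoxb5 had 46 reads in the lung-labelled library (7.37 RPKM), 24 in the kidney-labelled library (3.92 RPKM), 3 in each of those labelled colon and heart and 1 in each of those labelled brain and small intestine. The ratio of lung to kidney was 1.88 [1.12 to 3.22], although the intervals of both levels overlapped, and 1.47 [0.879 to 2.52] with Kri1 left out of the totals. Hoxc5 had no reads in the lung-labelled library but 21 in the colon-labelled library, 20 in the kidney-labelled library and 3 in the small intestine-labelled library. Against a bound of 3 reads, Hoxa4 and Hoxb4 were 20.9-fold and 23.2-fold higher in the lung-labelled library than in the kidney-labelled library. The lower limits of the intervals of these ratios were 16.5 and 18.4.

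Groups 6 to 8, used in the thorax, were mostly highest in the colon-labelled library. Hoxb6 had 226 reads there (74.7 RPKM [65.2 to 85.0]), 88 in the brain-labelled library (12.3 RPKM [9.88 to 15.2]), 51 in the kidney-labelled library (10.01 RPKM [7.45 to 13.2]), 4 in the heart-labelled library and 1 in each of the last 2. Thus it was 6.06-fold [4.72 to 7.85] higher in the colon-labelled library than in the brain-labelled library and 7.46-fold [5.48 to 10.3] higher than in the kidney-labelled library. Hoxa7 had 108 reads in the colon-labelled library (34.9 RPKM), 60 in the brain-labelled library (8.21 RPKM), 40 in the kidney-labelled library (7.68 RPKM), 7 in the small intestine-labelled library, 1 in the lung-labelled library and none in the heart-labelled library. Hoxb7 had 79 reads in the colon-labelled library (26.9 RPKM), 45 in the brain-labelled library (6.50 RPKM), 24 in the kidney-labelled library (4.86 RPKM), 13 in the lung-labelled library (2.58 RPKM) and 2 in the small intestine-labelled library. For these 3 genes the levels under the labels brain and kidney overlapped within counting error, and their order turned for Hoxa7 and Hoxb6 with Kri1 left out (ratios of brain to kidney of 0.850 and 0.978).

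Group 8 followed the same order at the top but not below it. Hoxb8 had 102 reads in the colon-labelled library (31.1 RPKM), 70 in the kidney-labelled library (12.7 RPKM) and 69 in the brain-labelled library (8.90 RPKM), and none elsewhere. Hoxd8 had 90 reads in the colon-labelled library (23.0 RPKM), 76 in the brain-labelled library (8.24 RPKM), 12 in the kidney-labelled library (1.83 RPKM) and 1 in the heart-labelled library. Hoxd8 was therefore 4.52-fold [2.44 to 9.12] higher in the brain-labelled library than in the kidney-labelled library, whereas Hoxb8 was 1.42-fold [1.01 to 2.01] higher in the kidney-labelled library than in the brain-labelled library. Hoxc8 had 25 reads in the colon-labelled library (7.64 RPKM), 39 in the brain-labelled library (5.05 RPKM), 7 in the small intestine-labelled library, 2 in the kidney-labelled library and 1 in the heart-labelled library. Hoxc6 had 47 reads in the brain-labelled library (6.27 RPKM), 16 in the colon-labelled library (5.04 RPKM), 2 in the heart-labelled library and 1 in the small intestine-labelled library. For Hoxc8 and Hoxc6 the libraries labelled colon and brain did not differ beyond counting error (ratios of colon to brain for Hoxc8 of 1.51 [0.878 to 2.56] and of brain to colon for Hoxc6 of 1.24 [0.693 to 2.35]). Hoxa6 had 14 reads in the kidney-labelled library and 8 in the colon-labelled library, at 2.65 and 2.55 RPKM.

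Hoxb9, which patterns the ribs and the thoracic spinal cord, carried more reads than any other Hox gene. It had 791 reads in the brain-labelled library (99.2 RPKM [92.4 to 106]), 629 in the colon-labelled library (186 RPKM [172 to 201]), 524 in the kidney-labelled library (92.1 RPKM [84.4 to 100]), 17 in the small intestine-labelled library (2.97 RPKM [1.73 to 4.75]) and none in those labelled heart and lung. The first 3 libraries thus stood far above the others. Hoxb9 made up 60.2% of the Hox reads under the label brain, 39.2% under colon and 49.2% under kidney. It was 1.88-fold [1.69 to 2.09] higher in the colon-labelled library than in the brain-labelled library, and the levels under the labels brain and kidney had a ratio of 1.08 [0.963 to 1.20]. With Kri1 left out of the totals that ratio was 0.856 [0.765 to 0.957], so the order of these libraries turned. Against 3 reads, Hoxb9 was 359.8-fold higher in the colon-labelled library than in the lung-labelled library (lower limit of the interval 291.7).

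The paralogs of Hoxb9 had no reads in the brain-labelled library. Hoxa9 had 47 reads in the colon-labelled library (12.8 RPKM [9.43 to 17.1]) and 19 in the kidney-labelled library (3.08 RPKM [1.86 to 4.81]), and none in the other 4. Hoxd9 had 19 reads in the colon-labelled library (4.15 RPKM) and 1 in each of those labelled heart and kidney. Hoxc9 had 2 reads in the small intestine-labelled library and 1 in the heart-labelled library. Under the label brain, group 9 was thus Hoxb9 alone. There, 3 reads of Hoxa9 and Hoxd9 would be 0.347 and 0.277 RPKM.

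Groups 10 and 11 pattern the lumbar spine and the hindlimb and, for group 11, the developing kidney. Group 10 had most of its reads in the colon-labelled library. Group 11 had 10 reads in the colon-labelled library and 9 in the kidney-labelled library. Hoxc10 had 121 reads in the colon-labelled library (26.2 RPKM [21.7 to 31.3]) and none in the other 5 libraries. Against 3 reads in each of these, it was 67.9-fold to 95.2-fold higher in the colon-labelled library (95% lower limits 54.4 to 76.3). Hoxd10 had 53 reads there (11.5 RPKM [8.64 to 15.1]), 7 in the small intestine-labelled library (0.898 RPKM) and none in the other 4. Hoxa10 was shared, with 19 reads in the colon-labelled library (3.38 RPKM [2.03 to 5.28]), 21 in the kidney-labelled library (2.22 RPKM [1.37 to 3.39]) and 1 in the heart-labelled library, and its ratio of colon to kidney was 1.52 [0.775 to 2.98]. Hoxd11 had 10 reads in the colon-labelled library (2.20 RPKM) and 1 in each of those labelled lung and small intestine. Hoxa11 had 9 reads, all in the kidney-labelled library (1.26 RPKM [0.578 to 2.40]). Group 12 had few reads: Hoxc12 had 10 in the small intestine-labelled library (1.56 RPKM [0.747 to 2.86]) and 1 in the kidney-labelled library, and Hoxd12 had 1 in the heart-labelled library.

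Group 13, the last of the code, acts in the digits, the tail, the hindgut and the external genitalia, and was highest in the kidney-labelled library. Hoxa13 had 108 reads there (12.3 RPKM [10.1 to 14.8]), 1 in the brain-labelled library and none in the other 4. Against 3 reads, Hoxa13 was 21.4-fold higher in the kidney-labelled library than in the colon-labelled library (lower limit of the interval 17.1). Hoxb13, which is also known from the prostate and distal colon, had 88 reads in the kidney-labelled library (13.5 RPKM [10.8 to 16.7]), 15 in the colon-labelled library (3.88 RPKM [2.17 to 6.40]), 5 in the heart-labelled library (0.712 RPKM [0.231 to 1.66]) and none elsewhere. The ratio of kidney to colon was 3.49 [2.00 to 6.49]. Hoxd13 had 23 reads in the kidney-labelled library (2.98 RPKM [1.89 to 4.47]) and 1 in the heart-labelled library. Hoxc13 had no reads. The libraries labelled colon and kidney thus both reached the posterior groups, but with Hoxc10 and Hoxd10 in the former and Hoxa13 and Hoxd13 in the latter.

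**Figure D3:**
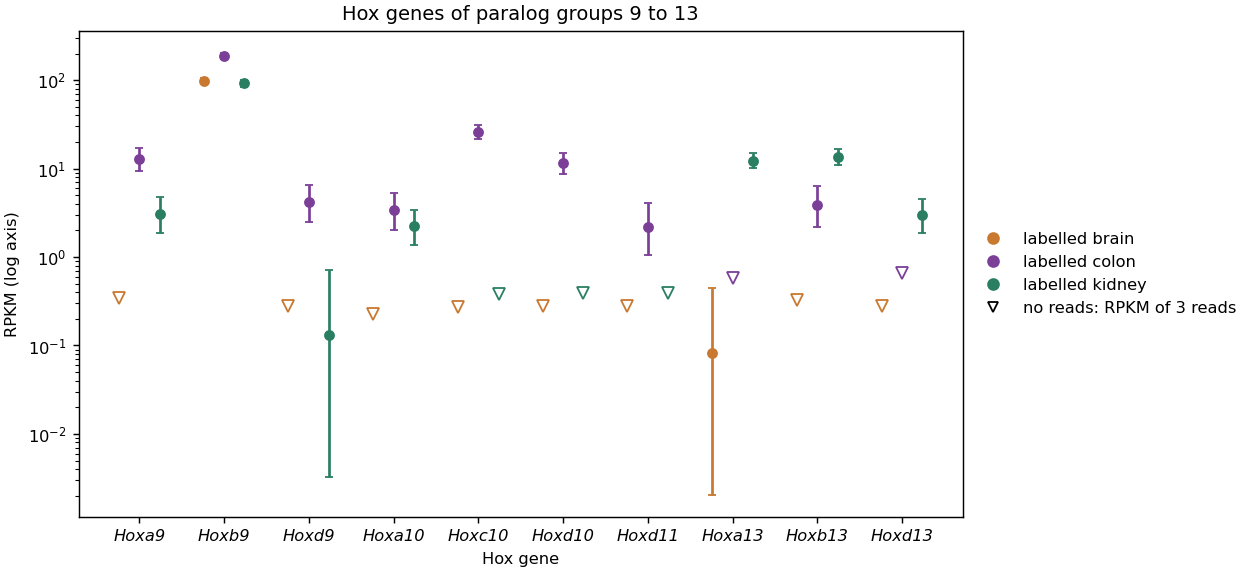
RPKM on a log axis of the Hox genes of groups 9 to 13 with at least 10 reads under the label colon or kidney, in the libraries labelled brain, colon and kidney. Points are values with 95% exact Poisson intervals (counting error only), and open triangles mark genes with no reads at the RPKM of 3 reads. Hoxb9 is high in all 3, Hoxc10 and Hoxd10 have reads under the label colon, and Hoxa13 and Hoxd13 under the label kidney, with 1 read of Hoxa13 under the label brain.

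The clusters were used unequally. Hoxb held 79.7% [77.4 to 81.8] of Hox reads in the brain-labelled library, 65.8% [63.4 to 68.1] in the colon-labelled library and 73.4% [70.7 to 76.0] in the kidney-labelled library. The second largest share differed, with Hoxc at 9.81% in the brain-labelled library, Hoxa at 20.8% in the kidney-labelled library, and Hoxa, Hoxc and Hoxd nearly equal at 11.3%, 11.4% and 11.5% in the colon-labelled library. In the lung-labelled library Hoxa held 49.4% [43.4 to 55.5] and Hoxb 50.2% [44.2 to 56.2], while Hoxc had 0 of 261 reads (3 reads would be 1.15%, and the Wilson upper limit was 1.45%) and Hoxd had 1. Hoxc held 2.25% [1.52 to 3.33] of Hox reads in the kidney-labelled library, of which 20 of 24 reads were of Hoxc5. Within a cluster, neighbours could part sharply. Hoxc10 had 121 reads in the colon-labelled library, where Hoxc9 and Hoxc11 on either side had none, although the shared windows of Hoxc9 were few (99.6% its own) and Hoxc11 had no shared window.

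The libraries labelled heart and small intestine held few Hox reads. In the heart-labelled library, no gene had more than the 5 reads of Hoxb13, followed by 4 of Hoxb6 and 3 each of Hoxb5 and Hoxa3, and 9 other genes had 1 or 2. In the small intestine-labelled library the highest was Hoxb9 with 17 reads, followed by Hoxa5 and Hoxc12 with 10 each, Hoxc4 with 8, and Hoxa7, Hoxc8 and Hoxd10 with 7 each. Markers of other tissues were also found at low levels in these libraries. The 3 colon markers were in the heart-labelled library at 1.54 to 8.63% of their level in the kidney-labelled library. Among Hox genes, Hoxb13 was at 0.712 RPKM against 13.5 RPKM. Hoxb9 and Hoxa13 had no reads in the heart-labelled library, against 92.1 and 12.3 RPKM in the kidney-labelled library. The 3 small intestine markers were in the small intestine-labelled library at 1.17 to 12.4% of their level in the brain-labelled library. Hoxb9 was at 2.97 RPKM against 99.2 RPKM. Hoxa5, Hoxc12 and Hoxd10, at 1.61, 1.56 and 0.898 RPKM in the small intestine-labelled library, had no reads in the brain-labelled library. Whether carry-over between libraries had a part in the low Hox values was not tested.

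Other cell types moved with these libraries. Smooth muscle markers were highest in the libraries labelled brain and kidney for 4 of 5 genes, for example Myh11 at 880.3 and 1095 RPKM against 7.40 to 70.2 in the others, and the exception was Des, highest in the heart-labelled library. All 4 epithelial markers were highest in these same 2 libraries, with Epcam at 1130.0 and 1175 RPKM against 19.9 to 61.8. All 3 endothelial markers were highest in the lung-labelled library. In the colon-labelled library, where the summed Hox level was highest, Myh11 was at 8.56 RPKM and Epcam at 61.8 RPKM. Which cells carried the Hox reads was not tested.

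MEIS family genes encode homeodomain cofactors that bind DNA beside Hox proteins. Meis2 was at 50.3 RPKM in the small intestine-labelled library and at 4.88 to 8.69 RPKM in the other 5, and Meis1 ranged from no reads in the brain-labelled library to 6.92 RPKM in the heart-labelled library.

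Cdx2 and Cdx1, caudal homeobox genes of intestinal epithelium that act upstream of posterior Hox genes in the embryo, followed another order than the Hox genes. Cdx2 was at 52.0 RPKM in the brain-labelled library, 16.8 RPKM in the kidney-labelled library and 0.421 RPKM or less in the other 4. Cdx1 was at 7.72 and 8.86 RPKM in these 2 libraries, and at 0.304 RPKM or less in the others. The library labelled colon, with the highest summed Hox level, had no reads of either. Of the other ParaHox and caudal genes, Pdx1 and Gsx1 had no reads, and Cdx4 and Gsx2 were at 1.00 RPKM or less. Evx1, at the 5′ end of the Hoxa cluster, was at 2.67 RPKM in the colon-labelled library, 1.90 in the kidney-labelled library and 0.419 or less elsewhere, and Evx2, beside Hoxd13, was at 1.65 RPKM or less.

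**Figure D4:**
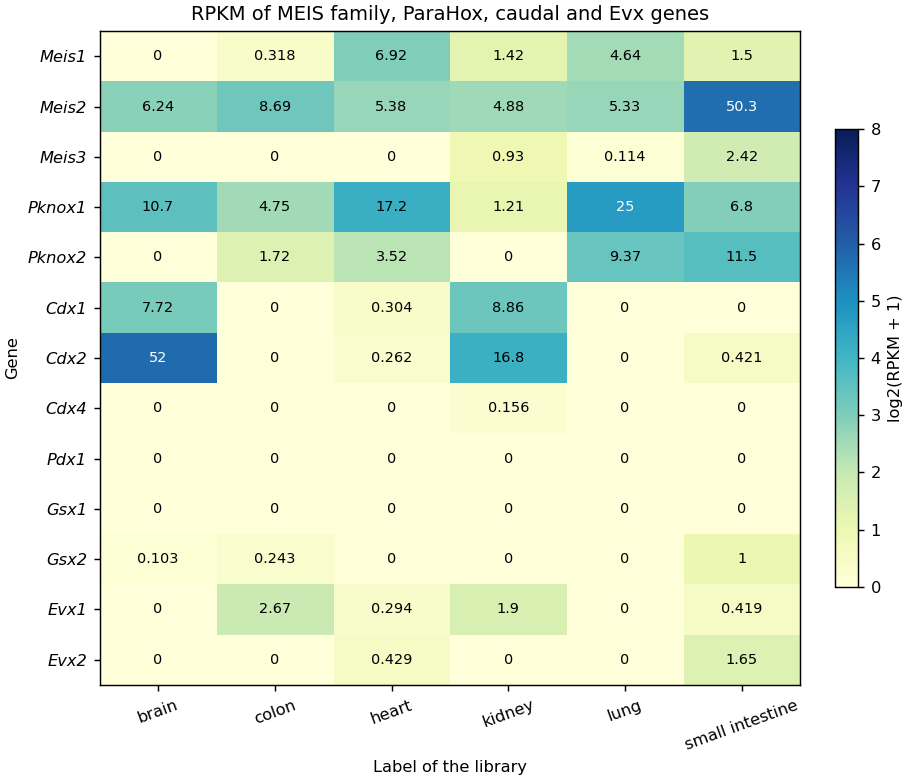
RPKM of MEIS family cofactor genes (Meis1 to Pknox2), caudal and ParaHox genes (Cdx1 to Gsx2) and Evx1 and Evx2, in each library, with colour as log2(RPKM + 1) and 0 for no reads. Meis2 is highest under the label small intestine, and Cdx1 and Cdx2 are highest under the labels brain and kidney.

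Of the 7 genes without a homeobox that flank the clusters, 5 to 7 had reads in each library (62.5 to 81.5% of all mRNAs). Skap2, beside the Hoxa cluster, was at 20.7 to 327 RPKM and Mtx2, beside the Hoxd cluster, at 53.6 to 178 RPKM, each in all 6 libraries. Of the 15 Polycomb and trithorax genes, whose proteins keep Hox genes silent or active, 13 to 15 had reads in each library (62.5 to 81.5% of all mRNAs). Their median in each library was 6.49 to 10.6 RPKM. Ezh2, the main methyltransferase of Polycomb, was highest in the brain-labelled library (14.4 RPKM) and lowest in the small intestine-labelled library (0.643 RPKM). Of the 8 retinoic acid genes, 4 to 8 had reads in each library (62.5 to 81.5% of all mRNAs). Aldh1a1, which makes retinoic acid, was at 847 RPKM in the lung-labelled library and at 7.83 to 167 RPKM in the others.

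Transcription factors of the forebrain and of single organs each led in 1 or a few libraries. Of 10 anterior brain factors, 9 had reads in the small intestine-labelled library (81.5% of all mRNAs) and 7 were highest there (23.5% of mRNAs with at least 10 reads). Emx1 was highest in the colon-labelled library (40.6 RPKM, against 9.84 RPKM in the small intestine-labelled library). Of 9 organ factors, Tbx20 was at 97.1 RPKM and Nkx2-5 at 31.9 RPKM in the heart-labelled library and Nkx2-1 at 64.4 RPKM in the lung-labelled library. Pax8 had reads only in the colon-labelled library (11.8 RPKM), where Hoxc10 and Hoxd10 were also highest.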

How the data were processed

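Ribo-seq libraries of 6 labelled mouse tissues were analysed, with 1 library per label. The authors deposited RPKM values for each library, 1 per protein-coding mRNA. Per the Methods, reads were trimmed with Cutadapt and those under 15 nt dropped. STAR then aligned them to 1 mRNA per gene, that with the longest CDS (Ensembl 107, GRCm39). Reads with several matches or over 2 mismatches were dropped, a random forest assigned P-sites, and a script of the study counted CDS reads. These steps are described for macrophages of the same study and were assumed for the tissues. Tool versions and the use of strand are not given in the sources used here.

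Reads were recovered as RPKM times CDS length over the smallest nonzero product, and 100% of values came out whole (tolerance 0.01), giving 4504853 to 10635031 reads per library. Gene IDs were named through GENCODE M39, a later annotation of the same build (18424 of 18437 mRNAs matched), which also gave CDSs and coordinates. Windows were compared over 21594 mRNAs. Ratios have exact conditional intervals, levels exact Poisson intervals and shares Wilson intervals, all at 95%. The self-test on simulated reads recovered the values it was made with. Named genes were all Hox genes, in full with at least 10 reads in a library, and fixed lists of other genes and markers. The members and lists were chosen with earlier results of these data known. The alternatives covered the minimum of reads, the depth, the total, the length, the weight of each gene and carry-over, the last chosen after seeing the data. Software was pandas 2.3.3, scipy 1.17.1, numpy 2.4.6 and matplotlib 3.10.9 under Python 3.11.15. Some listed genes and sequences are not reported here.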

Additional observations from a re-analysis of the deposited data

How the results depend on the processing

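With 1 library per label, no value has a replicate error, and no library was left out of a fit. No paired analysis was possible because each label has 1 library. Of the alternative values, 63 stayed within counting error or within 1.5 times a count and 44 moved further. Ratios between libraries with Kri1 left out, computed after seeing the data, turned for brain over kidney in Hoxa7 (0.850), Hoxb6 (0.978) and Hoxb9 (0.856), and for Hoxb5 the ratio of lung to kidney (1.47) then had an interval that included 1, while that of kidney to lung for Hoxb7 (2.41) no longer did. Requiring 10 reads in place of 1 gave 0, 14, 5 and 3 Hox genes and 0, 7, 3 and 3 paralog groups for the labels heart, kidney, lung and small intestine. Requiring 3 reads gave 4, 6 and 9 genes for heart, lung and small intestine, and 4 groups each for heart and lung. Counting only genes at 5% or more of their highest library, chosen after seeing the data, gave 7 genes (2.34 RPKM) for heart and 10 (8.60 RPKM) for small intestine. Leaving Kri1 out of the total raised the summed Hox level to 502 RPKM for colon and 228 RPKM for kidney, and leaving out mitochondrial mRNAs too gave 516 and 239 RPKM. Kidney then stood above brain (168 and 172 RPKM). Leaving out the Hox gene with the most reads gave 65.7 RPKM for brain, 282 for colon, 85.7 for kidney, 30.1 for lung and 10.9 for small intestine. It gave shares in groups 9 to 13 of 0.191%, 29.1%, 49.9% and 29.9% for brain, colon, kidney and small intestine. The mean paralog number was then 6.34, 7.73, 9.50 and 4.80 for brain, colon, kidney and lung. Weighting by RPKM gave shares of 53.5% for colon and 71.8% for kidney, and means of 8.10 and 9.01. Counting each gene once gave means of 6.43, 7.43, 7.70 and 5.40 for brain, colon, kidney and lung, and 7.92 and 6.75 for heart and small intestine, so that heart stood above kidney. Shares from genes with at least 10 reads were 0% for lung and 73.0% for small intestine, and heart had no such gene and no value. Genes under 10 reads have wide counting intervals. Thinned to the lowest total, heart had 11 Hox genes and 9 groups with reads.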
